A study of Mus musculus with 16 samples.

Results

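Apoh encodes beta-2-glycoprotein I, a plasma glycoprotein also called apolipoprotein H, and was followed here across 16 RNA libraries of mouse spermatozoa. It is 1 of 24062 gene rows in the deposited table and 1 of the 13149 genes that passed the expression filter. It was chosen by its p in edgeR's comparison of the diets, the smallest of those 13149 genes, and it was the 1 gene of 20393 that DESeq2 called (0.0049%), so its values by diet are a description and carry no test. The 8 HFD libraries came from males on a modified high-fat, high-calorie diet and the 8 CD libraries from males on the matching control diet, each diet being given for 9 weeks from 3 weeks of age. Motile sperm of these males were isolated, and 2 ng of RNA per sample was amplified into cDNA. The labels name no strain, and the series counts 8 mice per diet, so each library was taken as 1 animal.

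Beta-2-glycoprotein I is made mainly by the liver and is built from complement control protein (CCP) domains, also called sushi domains. It binds negatively charged phospholipids such as phosphatidylserine and cardiolipin. In humans it is the main target of the antibodies of the antiphospholipid syndrome. Cell surface receptors of the low-density lipoprotein receptor family, among them Lrp8 and Lrp2, and annexin A2 take part in its binding to cells. Ripe sperm transcribe little or no RNA, so transcripts in a sperm preparation stem from the testis, from the duct or from other cells carried along.

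The Apoh gene lies on chromosome 11 of GRCm38, on the forward strand, between the protein kinase C gene Prkca and Cep112, which encodes a centrosomal coiled-coil protein. RefSeq places Apoh at 108395297 to 108414396. GENCODE M21 places it at 108343354 to 108414396, because 3 of its 4 transcripts begin with exons further upstream. The full-length transcript, Apoh-201, has 8 exons and 1190 exonic bases and starts at 108395293. The transcript that begins furthest upstream, Apoh-202, starts at 108343354 inside the first part of Prkca, and the 2 GENCODE genes overlap by 575 bases on opposite strands, while in RefSeq they overlap by 0 bases. The deposited counts are gene totals, so reads of the separate Apoh transcripts cannot be told apart, and the strand setting of the counting is not given in the sources used here.

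The 250 bases before the RefSeq start of Apoh and of Cep112 are shown because these neighbours are compared below. They are from RefSeq's GRCm38.p6, forward strand, read 5′ to 3′, with CpG dinucleotides in capitals. The windows are chr11:108395047-108395296 for Apoh and chr11:108425016-108425265 for the first of 3 windows listed for Cep112.
Apoh: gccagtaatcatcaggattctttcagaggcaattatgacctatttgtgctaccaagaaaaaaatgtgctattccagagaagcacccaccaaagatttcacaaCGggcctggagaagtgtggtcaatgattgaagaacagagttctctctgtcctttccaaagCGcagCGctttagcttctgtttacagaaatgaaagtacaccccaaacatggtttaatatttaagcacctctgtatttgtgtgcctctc
Cep112: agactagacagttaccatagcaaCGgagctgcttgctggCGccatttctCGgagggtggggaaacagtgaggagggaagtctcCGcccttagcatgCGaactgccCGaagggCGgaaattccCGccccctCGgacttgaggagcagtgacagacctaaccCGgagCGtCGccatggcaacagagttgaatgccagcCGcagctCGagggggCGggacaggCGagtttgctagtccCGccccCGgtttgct
The Apoh window held 3 CpG dinucleotides and 42.0% G and C, and the Cep112 window 18 and 61.6%. Over 32851 windows of this length the medians were 6 CpG dinucleotides and 52.4%. Searched on both strands, the letters TATAAA and the cAMP response element TGACGTCA had 0 matches in either window. They were found in 12.4% and 1.55% of all windows, in that order.

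The total of reads in genes lay between 1882555 (HFD 4) and 7783981 (CD 2), which was 8.02% to 20.1% of a library's reads. Among the 16 libraries, HFD 4 and HFD 8 stood apart. The 32 genes of the late spermatid list, such as the protamines and flagellar genes, reached together 38205 CPM (counts per 1000000, scaled by edgeR's trimmed mean of M-values) in HFD 4, with 73495 CPM in HFD 8. The other 6 HFD libraries held 4007 to 13033 CPM of them and the CD libraries 3244 to 16077 CPM. The 17 epididymal epithelium genes had a sum of 18489 CPM in HFD 4, with 11149 CPM in HFD 8, against 62343 to 83642 CPM in the other HFD libraries and 40832 to 93352 CPM in CD libraries. A smaller number of cells and less RNA per cell cannot be told apart in such bulk preparations. Reads in no annotated feature made up 76.1% of HFD 4 and 75.0% of HFD 8, against 58.0% to 67.9% in the other libraries.

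Apoh was a low transcript in every library, and its reads were more numerous in HFD than in CD. The counts were 31, 19, 14, 71, 19, 13, 10 and 78 reads in HFD 1 to HFD 8. They were 4, 12, 3, 2, 15, 3, 2 and 8 reads in CD 1 to CD 8. In all, 255 reads of HFD libraries and 49 reads of CD libraries were assigned to Apoh.

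Scaled to library size, Apoh stood at 5.95, 3.59, 4.79, 42.3, 7.36, 3.36, 3.696 and 27.2 CPM in HFD 1 to HFD 8. It stood at 1.03, 1.59, 0.85, 0.61, 3.83, 0.82, 0.55 and 2.71 CPM in CD 1 to CD 8. The libraries HFD 4 and HFD 8 were far above all others, and CD 5 lay above HFD 2, HFD 6 and HFD 7, so that the groups overlapped in these 4 libraries. Of the 64 pairs of an HFD and a CD library, the HFD library was higher in 61. Among tested genes, 4 had the HFD library higher in at least 61 pairs, and 5 had it lower in as many. No overlap at all between the diets, a stricter measure, was found for 1 of 13149 genes (0.00761%). This was Rnf26, which was lower in HFD, with a log2 fold change of -0.98.

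**Figure D1:**
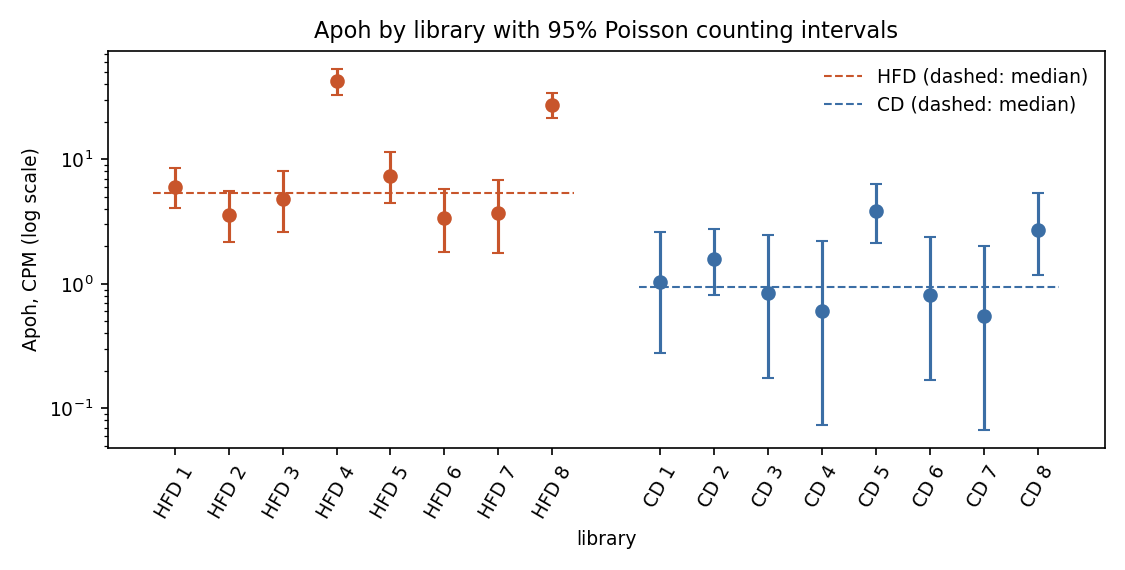
Apoh in CPM on a log axis for the 8 HFD and 8 CD libraries, with exact 95% Poisson intervals of the counts as bars and the median of each diet as a dashed line (5.37 CPM in HFD, 0.94 CPM in CD). HFD 4 and HFD 8 stand at 42.3 and 27.2 CPM, and CD 5 reaches 3.83 CPM, above 3 HFD libraries.

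Few reads make these levels imprecise, and the intervals given here cover counting error only, since amplified copies cannot be told from separate molecules. The exact 95% Poisson interval ran from 1.79 to 5.75 CPM in HFD 6, the lowest HFD library, and from 2.14 to 6.32 CPM in CD 5, the highest CD library. In CD 7, with 2 reads, it ran from 0.07 to 2.00 CPM. The intervals overlapped in 31 of the 64 pairs of an HFD and a CD library and did not in 33, of which 17 involved one of the 6 HFD libraries other than HFD 4 and HFD 8. In order of level, HFD 4 and HFD 8 lay above the rest with intervals of 33.0 to 53.3 and 21.5 to 33.9 CPM, which overlapped each other, followed by HFD 5 with 4.43 to 11.5 CPM. From HFD 5 down, each library's interval overlapped that of the next lower one.

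Apoh averaged 12.3 ± 14.5 CPM under HFD and 1.498 ± 1.18 under CD (SD, n = 8 each). Without HFD 4 and HFD 8 the HFD mean was 4.79 CPM ± 1.59 (SD, n = 6), and without CD 5 the CD mean was 1.16 ± 0.76 (SD, n = 7). The log2 fold change of HFD over CD fitted by edgeR was 2.98 ± 0.65 (SE), which is 7.89-fold, and without HFD 4 and HFD 8 it was 1.66 ± 0.49 (SE), or 3.17-fold. With the log2 ratio of late spermatid to epididymal transcripts as a covariate it was 1.90 ± 0.43 (SE), or 3.74-fold. These values belong to the comparison that chose the gene. The high Apoh of HFD 4 and HFD 8 came with the high late spermatid and low epididymal sums given above. It also came with the high share of reads in no feature. The part of these in the high Apoh was not tested. Without HFD 4 and HFD 8, the HFD mean was 3.197 times the CD mean.

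Within a diet, libraries with more sperm transcripts tended to hold more Apoh, though no relation passed correction. Because HFD 4 and HFD 8 form a cluster of their own, correlations were computed over the other 14 libraries, with log2(CPM + 1) centred on the mean of the diet. Pearson's r between Apoh and the late spermatid sum was 0.66 (permutation p = 0.0216, adjusted p = 0.13 over 12 measures) and Spearman's rho was 0.59 (permutation p = 0.0552, adjusted p = 0.221). Without the 2 libraries farthest from the median of the late spermatid sum, r was 0.75 over 12 libraries, with an adjusted permutation p of 0.0253. Without CD 2 r was 0.80 with an adjusted permutation p of 0.0433, and without CD 5 it was 0.56 with an adjusted permutation p of 0.511. Within the 8 CD libraries r was 0.66 (exact permutation p = 0.079), and within the 6 HFD libraries other than HFD 4 and HFD 8 it was 0.68 (exact permutation p = 0.138).

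The meiotic sum, which includes synaptonemal complex genes, had r = 0.44 and rho = 0.38 with Apoh (permutation p = 0.152 and 0.221). Epididymal transcripts had negative values. The epididymal epithelium sum gave r = -0.34 and rho = -0.30 (permutation p = 0.319 and 0.355), and the caput sum, led by Gpx5, a secreted glutathione peroxidase, gave r = -0.40 and rho = -0.38 (permutation p = 0.165 and 0.192). Adjusted p over the 12 measures was 0.395 for the meiotic and caput sums and 0.479 for the epididymal epithelium sum by r, and 0.53, 0.53 and 0.608 by rho.

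The remaining measures had no relation that passed either. The liver sum, most of it from the fibrinogen chain gene Fga, gave r = -0.67 and rho = -0.65 (permutation p = 0.0152 and 0.0184, adjusted p = 0.13 and 0.118). The spermatogonial sum gave r = -0.45 and rho = -0.63 (permutation p = 0.11 and 0.0196, adjusted p = 0.395 and 0.118). Of its 13 listed genes 3 passed the filter: Gfra1, with 6044 reads over all libraries, Kit with 681 and Zbtb16 with 579. Their single rho values with Apoh were -0.65, -0.52 and 0.22, in that order. The listed genes below the filter ran from 0 reads (Lin28a and Sohlh1) to 170 (Ret). The sum was thus mostly Gfra1, and whether these libraries held RNA of spermatogonia was not tested. Prkca gave r = 0.36 and rho = 0.04 (permutation p = 0.253 and 0.896, adjusted p = 0.479 and 0.978), and r was -0.12 without CD 5. Leukocyte and stromal genes gave r of 0.32 and 0.22, Rn45s, the ribosomal RNA precursor, 0.07, the share of reads in no annotated feature -0.09 and the log2 gene total -0.03, with permutation p from 0.301 to 0.923.

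**Figure D2:**
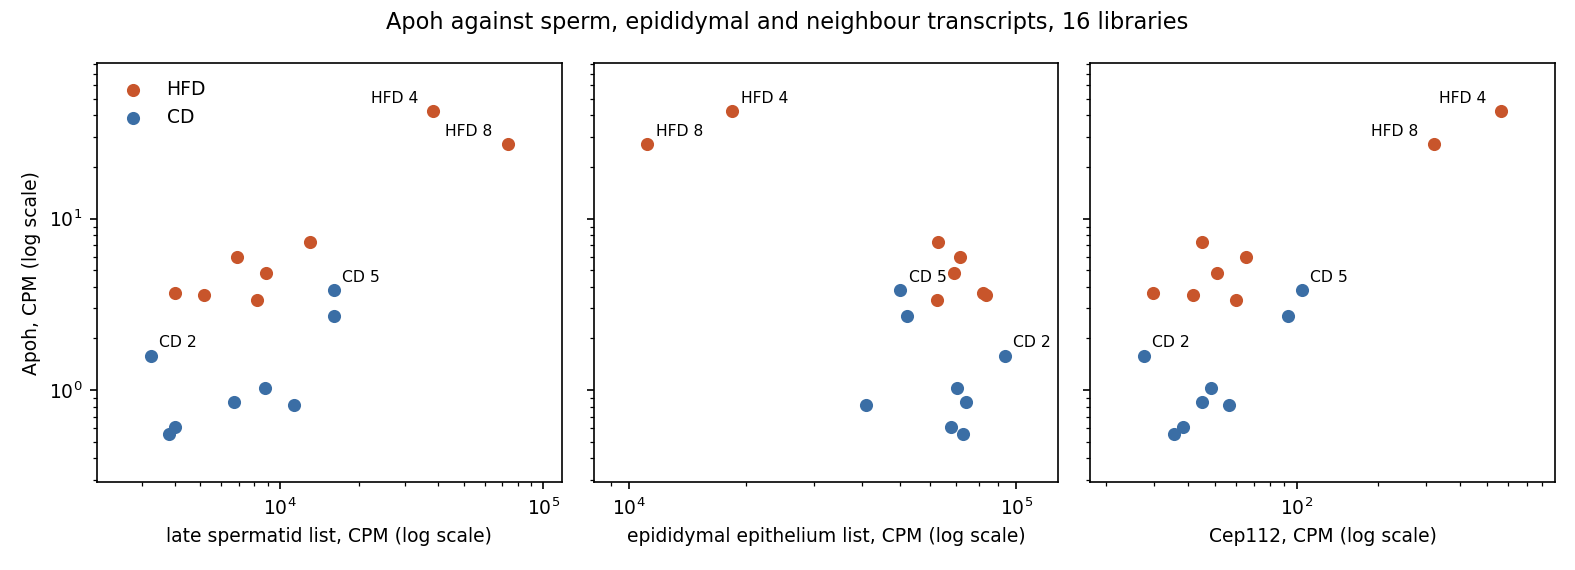
Apoh in CPM against the summed late spermatid list, the summed epididymal epithelium list and Cep112, all in CPM on log axes, with 1 point per library (8 HFD, 8 CD). HFD 4 and HFD 8 lie at the top with high late spermatid and Cep112 and low epididymal values, and the other HFD libraries lie mostly above CD libraries of the same late spermatid level.

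Taken gene by gene, most germ line transcripts had positive correlations with Apoh and most epididymal ones negative. Over the 14 libraries centred on diet, 32 of 32 tested late spermatid genes had a positive Spearman rho with Apoh, with a median of 0.43. Over all 13148 other tested genes 48.9% were positive and the median was -0.01. Of 21 tested meiotic genes 18 were positive, with a median of 0.26. Of 17 epididymal epithelium genes 5 were positive with a median of -0.26, and of 7 tested caput genes 1 was, with a median of -0.34. Of 14 leukocyte genes 13 were positive with a median of 0.15, and of 13 stromal genes 10 were, with a median of 0.06. By diet, the median log2 fold change of the leukocyte genes was 0.52, and 0.22 without HFD 4 and HFD 8, and the part of such cells in the Apoh values was not tested. These values are descriptions: the genes of a list share libraries and vary together.

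Single genes spread around these medians. Smcp, a cysteine-rich protein of the sperm mitochondrial capsule, had rho = 0.60 with Apoh over the 14 centred libraries, Odf1, of the outer dense fibres of the tail, 0.50 and Prm2, a protamine, 0.43. Among meiotic genes, Syce2, of the synaptonemal complex, had 0.75 and Tdrd6, a Tudor protein of the piRNA granules, 0.08. Spag11a, an epididymal beta-defensin gene, stood at -0.67 and Crisp1, a sperm-coating protein of the duct, at 0.14. Within the 6 HFD libraries other than HFD 4 and HFD 8 the medians lay nearer to 0, at 0.31 for late spermatid, 0.03 for meiotic, -0.09 for epididymal epithelium and -0.20 for caput genes, with 27 of 32 late spermatid and 14 of 21 meiotic genes positive. In the 8 CD libraries alone the medians were 0.52, 0.40, -0.36 and -0.40 for the same lists.

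**Figure D3:**
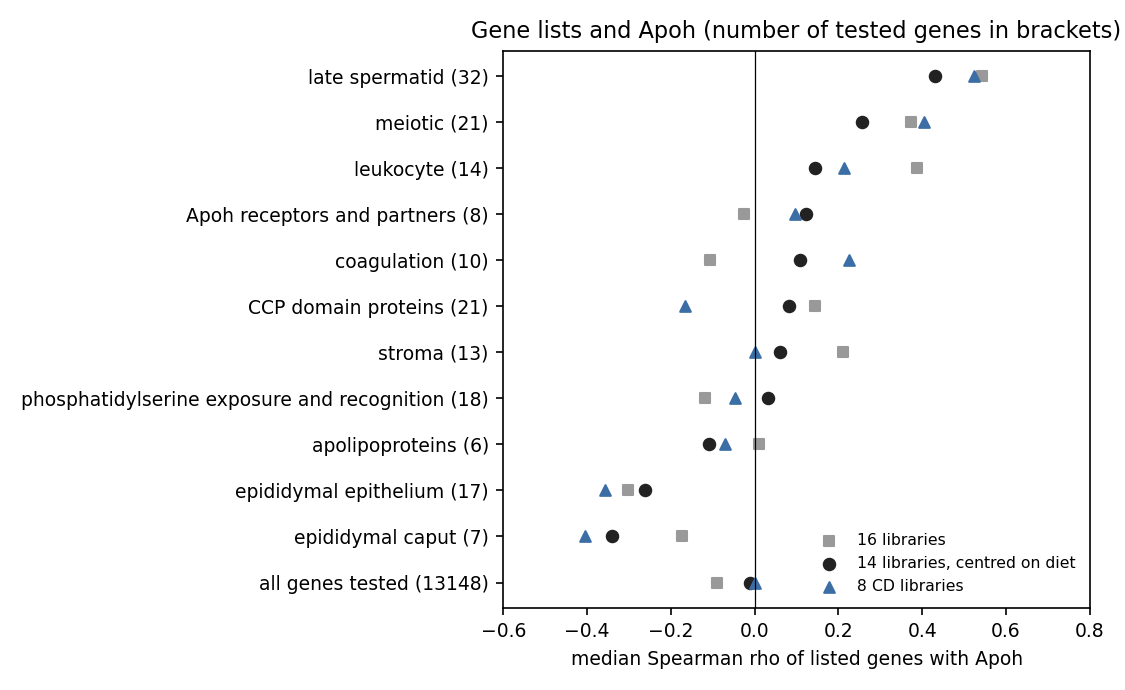
Median Spearman rho with Apoh of the tested genes of each list with at least 5 tested genes, over all 16 libraries, over 14 libraries centred on diet and over the 8 CD libraries. Late spermatid genes lie highest (0.43 over the 14 libraries) and caput genes lowest (-0.34), and all tested genes lie at -0.01.

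The amount of Apoh per unit of germ line RNA was also set side by side, a measure chosen after the values were seen and part of the same diet contrast. Per 1000 CPM of late spermatid transcripts, HFD libraries held 0.37 (HFD 8) to 1.11 CPM (HFD 4) of Apoh and CD libraries 0.07 (CD 6) to 0.49 CPM (CD 2). The means were 0.68 ± 0.26 in HFD and 0.19 ± 0.13 in CD (SD, n = 8 each). Only CD 2 of the CD libraries lay within the HFD range. HFD 8, with the most late spermatid RNA, was the lowest HFD library on this scale. Per 1000 CPM of meiotic transcripts, HFD libraries held 3.89 to 10.4 CPM of Apoh and CD libraries 0.69 to 3.76. The groups did not overlap, but the nearest libraries, HFD 6 and CD 2, had 13 and 12 Apoh reads. Counting error is far larger than this gap, and how many other genes separate on this scale was not counted.

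**Figure D4:**
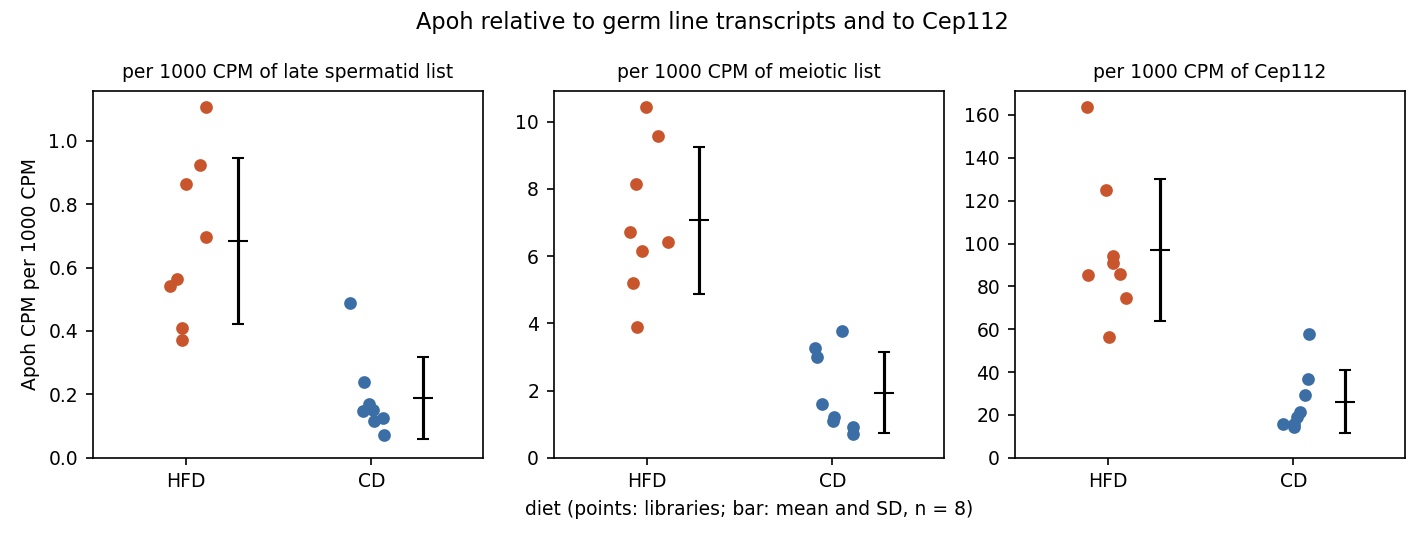
Apoh CPM per 1000 CPM of the late spermatid list, of the meiotic list and of Cep112, with points for libraries and bars for the mean and SD of each diet (n = 8). On the meiotic scale the lowest HFD library lies at 3.89 (13 Apoh reads) and the highest CD library at 3.76 (12 reads), a gap within counting error.

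The next gene downstream, Cep112, was highest in the 2 libraries that were highest in Apoh. It lies 10796 bases beyond Apoh on the same strand, at 108425192 to 108860615 of chromosome 11. Cep112 stood at 65.4, 41.7, 51.0, 565, 44.9, 59.7, 29.6 and 319 CPM in HFD 1 to HFD 8 and at 48.5, 27.5, 45.0, 38.2, 104, 56.4, 35.5 and 92.7 CPM in CD 1 to CD 8. Of the HFD libraries HFD 4 and HFD 8 were highest, and CD 5 and CD 8 among CD libraries, the same as for Apoh. Its log2 fold change was 1.39 ± 0.58 (SE), with an edgeR adjusted p of 0.434, and was -0.19 without HFD 4 and HFD 8. Per 1000 CPM of Cep112, HFD libraries held 56.3 to 164 CPM of Apoh and CD libraries 14.5 to 57.7, with overlap in HFD 6 and CD 2 alone.

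Prkca, whose GENCODE start overlaps that of Apoh, ranked near the middle of the neighbours in its likeness to Apoh. It had 8.38 ± 4.11 CPM under HFD and 9.84 ± 5.67 under CD (SD, n = 8 each), with a fitted log2 fold change of -0.24 ± 0.38 (SE) and an edgeR adjusted p of 0.832. Its highest HFD library was HFD 4, with 16.1 CPM, and its highest library of all was CD 5, with 22.7 CPM. Its rho with Apoh was 0.12 over 16 libraries and 0.04 over the 14 centred ones.

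Within 1 Mb of Apoh, 9 other genes passed the filter. Over the 14 centred libraries 5 of the 9 had a positive rho with Apoh, as did 48.9% of all other tested genes. Cep112 with 0.47 was the highest of the 9, at percentile 93.5 of all tested genes. Axin2, which acts in the degradation of beta-catenin, lay lowest with -0.67. Psmd12, a proteasome subunit gene, stood at 0.08, Gm11696, an antisense gene, at 0.09, and Gna13, a G protein subunit gene, at 0.04. Pitpnc1, a phosphatidylinositol transfer protein gene, had -0.19, the RNA helicase gene Helz -0.42 and Rgs9, a regulator of G protein signalling, -0.36. By diet, 0 of the 9 passed edgeR's adjusted p of 0.05, as did 0 of all 13149 genes (0%), and 2 of the 9 had positive log2 fold changes.

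**Figure D5:**
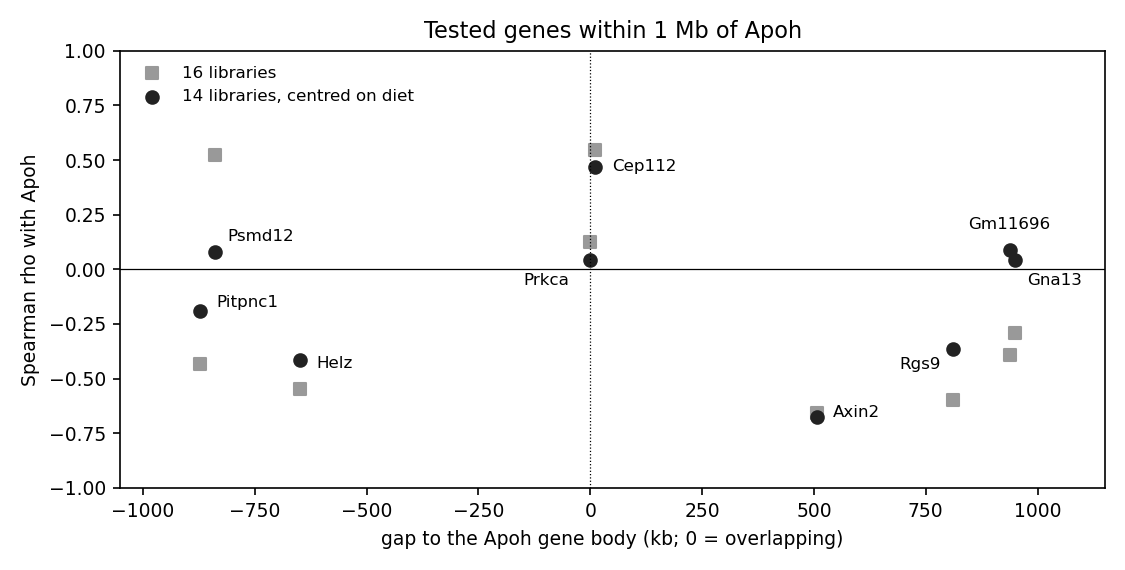
Spearman rho with Apoh of the 9 other tested genes within 1 Mb, against the gap in kb between their gene body and that of Apoh, over all 16 libraries and over 14 libraries centred on diet. Cep112, 10.8 kb away, has rho = 0.55 and 0.47, and Axin2, 506 kb away, -0.66 and -0.67.

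Genes of liver cells, most of them for plasma proteins, were set beside Apoh. Of the 18 listed, 1 passed the filter, Fga, which encodes a fibrinogen chain, with 54.3 ± 32.4 CPM under HFD and 67.4 ± 32.7 under CD (SD, n = 8 each). Fga ran against Apoh, with rho = -0.63 over the 14 centred libraries, and made up most of the liver sum, which averaged 61.5 ± 26.8 CPM under HFD and 71.7 ± 32.2 under CD. Over all 16 libraries together Fga had 3735 reads and Apoh 304, and the 17 liver genes below the filter had 0 to 61. The highest of these were Serpina1a, an antitrypsin gene, with 61 reads, Fgb, another fibrinogen chain, with 59 and Serpinc1, antithrombin, with 56. Hp, haptoglobin, and Cps1, of the urea cycle, had 30 each and Fgg 21. Alb, the albumin gene, had 6 reads, with 0 in 13 libraries, and Plg, plasminogen, had 0 in all 16. In HFD 4, the library highest in Apoh, the liver sum was 26.2 CPM, the lowest of all 16, and Fga was 10.7 CPM of it. Fga stood at 10.1 CPM in HFD 8, at 50.3 to 102 in the other HFD libraries and at 25.8 to 138 in CD. In CD, Fga averaged 67.4 of the 71.7 CPM of the sum. In HFD 4, most of the sum came from the other liver genes. These together were thus higher in HFD 4 than on average in CD, though each had few reads. The negative values of the sum therefore follow Fga and do not show the other liver genes, whose relation to Apoh was not computed. The part of liver RNA in the Apoh values was not tested.

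Receptors and partners of beta-2-glycoprotein I had 8 of 13 listed genes that passed the filter. Of the 8, 0 passed with edgeR, as did 0% of all tested genes, and 0 had an unadjusted p under 0.05, against 11.3% of all tested genes, and 0 were called by DESeq2. Lrp2, the endocytic receptor megalin, had 183 ± 111 CPM under HFD and 242 ± 68.7 under CD. Anxa2, a phospholipid-binding annexin, had 181 ± 67.7 CPM and 211 ± 42.3 in the same order, and Lrp1 42.4 ± 16.9 and 39.3 ± 17.2. Vldlr had 31.1 ± 10.1 CPM under HFD and 34.4 ± 8.48 under CD. The median log2 fold change of the 8 genes was -0.18, and -0.0042 over all tested genes. Over the 14 centred libraries Vldlr had rho = 0.46 with Apoh and Anxa2 -0.47, and 5 of the 8 were positive.

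Genes that expose, flip or recognise phosphatidylserine, the lipid that beta-2-glycoprotein I binds, gave 18 tested of 23 listed. Of these 0 passed with edgeR or DESeq2, 1 had an unadjusted p under 0.05, and the log2 fold change was positive for 7, the median over the 18 being -0.12. Of all tested genes edgeR called 0%, 11.3% had such a p and 49.6% were positive. The gene with the unadjusted p under 0.05 was Atp8b3, which encodes a lipid flippase of the testis. It had 456 ± 522 CPM under HFD and 199.98 ± 112 under CD, with a fitted log2 fold change of 1.19 ± 0.56 (SE) and an edgeR adjusted p of 0.442. In HFD 4 and HFD 8 there were 1374 and 1221 CPM of it and in the other HFD libraries 114 to 227, against 79.2 to 360 in CD, and without those 2 libraries its log2 fold change stood at -0.18. Atp11a, another flippase, had 299 ± 126 CPM under HFD and 358 ± 60.3 under CD. Mfge8, a bridging protein for phosphatidylserine, had 153 ± 84.4 and 170 ± 27.1 CPM in the same order, and Anxa5 141 ± 48.9 and 171 ± 42.4.

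Of 43 listed genes with CCP domains, 21 were tested, and 0 passed with edgeR or DESeq2. At an unadjusted p under 0.05 there were 4, Daf2, Cr2, Zp3r and Pappa, and the log2 fold change was positive for 12, the median over the 21 being 0.14. Over all 13149 tested genes edgeR called 0%, 11.3% had an unadjusted p under 0.05 and 49.6% had a positive log2 fold change. Daf2, a second decay-accelerating factor of mouse, had 73.3 ± 80.1 CPM under HFD and 23.4 ± 9.79 under CD, with a fitted log2 fold change of 1.65 ± 0.55 (SE) and an edgeR adjusted p of 0.434. Zp3r, of the acrosomal matrix, had 245 CPM in HFD 4, 44.6 in HFD 8 and 7.76 to 40.7 in the other HFD libraries, against 4.28 to 47.5 in CD. Without HFD 4 and HFD 8 the log2 fold changes of Daf2 and Zp3r were 0.47 and 0.30. C4bp, a complement inhibitor and the most abundant of the list, had 955 ± 696 CPM under HFD and 1162 ± 920 under CD and ran against Apoh, with rho = -0.56 over the 14 centred libraries. Cr1l, a complement regulator of rodents, had 72.3 ± 28.1 CPM under HFD and 75.2 ± 30.5 under CD, and C7, of the terminal complement pathway, 56.8 ± 40.1 and 51.5 ± 31.9.

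Of 16 listed apolipoprotein genes 6 were tested and of 28 coagulation genes 10, and 0 of either passed with edgeR or DESeq2 or had an unadjusted p under 0.05, where edgeR called 0% of all tested genes and 11.3% had such a p. Clu, clusterin, had 3722 ± 2807 CPM under HFD and 4666 ± 3855 under CD with rho = -0.52 over the 14 centred libraries. Apod had 279 ± 219 CPM under HFD and 205 ± 133 under CD with rho = 0.39, and Apoe 96.8 ± 33.0 and 87.0 ± 29.5 with rho = -0.10. Apoc1 had 11.8 ± 8.67 CPM under HFD and 11.4 ± 4.09 under CD. Among coagulation genes F5, factor V, had 89.4 ± 46.8 CPM under HFD and 77.4 ± 41.8 under CD. Plau, urokinase, had 85.4 ± 42.6 and 89.0 ± 25.1 CPM in the same order, and Pros1, protein S, 18.1 ± 6.44 and 20.1 ± 7.15. The medians of rho with Apoh over the 14 centred libraries were -0.11 for apolipoproteins and 0.11 for coagulation genes.

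The 10 genes whose levels were most like those of Apoh across all 16 libraries, by Spearman's rho of log2(CPM + 1), included Kat8 (0.89), Cep41 (0.87), Dnajc27 (0.85), Aven (0.84) and 1700112J05Rik (0.84). Ccin (0.83), Fam209 (0.81), Atg7 (0.81) and 4930406D18Rik (0.81) were also among them. Kat8 encodes a histone acetyltransferase, Cep41 a centrosomal and ciliary protein, Aven an inhibitor of apoptosis, Ccin the sperm head protein calicin and Atg7 an enzyme of autophagy. HFD 4 held the highest value of each of these genes. Fam209, for example, had 235 CPM in HFD 4, 76.4 in HFD 8 and 3.33 to 31.3 in the other HFD libraries, against 2.44 to 53.4 in CD, with CD 5 the highest CD library. Cep41 had 137 CPM in HFD 4, 95.9 in HFD 8 and 46.3 to 93.5 in the other HFD libraries, against 40.2 to 81.7 in CD.

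Without HFD 4 and HFD 8 the 10 most alike genes over 14 libraries included Spon1 (0.88), Kat8 (0.84), Cep41 (0.81), Zfp882 (0.81), Ccdc162 (0.78), Dnajc27 (0.78), Atg7 (0.78), Aven (0.77) and 1700112J05Rik (0.76), and 7 of the 10 were also among the 10 over all libraries. Spon1, the extracellular matrix protein F-spondin, had 1.79 CPM in HFD 4 and 26.5 in HFD 8, with 6.04 to 20.9 in the other HFD libraries, against 4.28 to 13.03 in CD. The difference between the diets enters these values. Centred on diet, the rho of Aven over the 14 libraries was 0.24 and that of Kat8 0.47, while Cep41 stood at 0.77, Spon1 at 0.78 and Dnajc27, a small GTPase with a J domain, at 0.75.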

How the data were processed

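The authors deposited raw read counts for 24062 gene symbols in each of the 16 libraries. Among the tools and builds in the submitters' processing notes are HTSeq 1.0.0, STAR, mm10 and DESeq2 1.0.19, with no role or order, and which annotation and strand setting were used is not given there. Library sizes and tests left out the 5 summary rows of the counting program: reads in no feature made up 58.0% to 76.1% of a column, reads not uniquely aligned 15.8% to 30.7% and ambiguous reads 0.0474% to 0.0907%.

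From these counts, HFD was set against CD by edgeR 4.0.16 under R 4.3.3 (default expression filter, TMM factors, robust quasi-likelihood test, two-sided, Benjamini-Hochberg adjustment over 13149 genes, threshold 0.05). The step was tested on simulated data. CPM are counts over edgeR's effective library sizes. Correlations used log2(CPM + 1) and two-sided permutation tests that shuffled libraries within a diet (100000 resamples, or all orders within 1 diet), adjusted over 12 measures. The members and lists were chosen with earlier results of these data known. Named genes were Apoh, Prkca, tested genes within 1 Mb, the tested list members of highest abundance (up to 4 for lists tied to Apoh and up to 3 for cell type markers) and the 10 genes most like Apoh over 16 and over 14 libraries. Not all of them are described, and some are not reported here. Cr2, Pappa, Zp3r, the liver genes below the filter and the ratios to germ line RNA and to Cep112 were chosen with their values in view. As alternatives, other tests (DESeq2 1.42.0, voom in limma 3.58.1), scalings, filters, covariates, a block of title numbers and the omission of Rn45s or of libraries were tried. p-values measure the spread between libraries. Coordinates come from GENCODE M21 and from RefSeq's GRCm38.p6, of the same assembly as mm10.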

Additional observations from a re-analysis of the deposited data

Results flagged for a closer look

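In a group of 8 libraries, a value was picked out where its gap to the nearest other library, as a share of the group's range, exceeded Dixon's 95% critical value, which chance gives in about 1 of 20 groups, and 46 groups were examined. The values picked out were all in CD. Because the rule uses the gap to the nearest library, 2 extreme libraries of a group, such as HFD 4 and HFD 8, hide each other. The lack of picked values in HFD therefore does not show that HFD held no extreme ones. Apoh per 1000 late spermatid CPM was 0.489 in CD 2, against 0.239 in the next library. CD 2 also had the largest gene total, 22.9 on the log2 scale against 21.8 in the next CD library, and 100.3 CPM of Psmd12 against 61.8. Prkca stood at 22.7 CPM in CD 5, the CD library highest in Apoh, against 11.4 CPM in the next. Gm11696 had 12.8 CPM in CD 4, against 5.88. The liver list summed to 142 CPM in CD 3, against 83.7.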

How the results depend on the processing

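The log2 fold change of Apoh, 2.98, stayed positive under every alternative run. It was 1.90 with the sperm to epididymal ratio as a covariate and 1.66 without HFD 4 and HFD 8, and single libraries left out gave 2.41 (without HFD 4) to 3.36 (without CD 5). As mean log2 ratios, added after the values were seen, it was 1.99 to late spermatid, 2.06 to meiotic and 1.99 to Cep112 transcripts. The title number as a replicate block gave 2.52. Same-numbered deviations correlated from -0.41 to 0.62, which cannot decide whether the numbers mark a pairing, and the libraries were not treated as pairs. Called genes were 0 with edgeR, 0 with voom and 0 with the block, and 1, Apoh, with DESeq2. Genes at an unadjusted p under 0.05 numbered 1482 with edgeR, 488 with voom, 314 with the block, 516 without HFD 4, 689 without HFD 8 and 292 without both.

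Over all 16 libraries, where HFD 4 and HFD 8 form their own cluster, r was 0.85 for late spermatid, 0.85 for meiotic and -0.84 for epididymal epithelium sums. It was -0.83 for the liver sum (mostly Fga), -0.68 for the spermatogonial sum (mostly Gfra1), 0.65 for stroma and 0.61 for Prkca. By r these all passed the threshold, as did the share of reads in no feature, which turned to 0.65, while Rn45s turned to -0.19. By rho, stroma (0.52), Prkca (0.34) and reads in no feature (0.56) did not pass. Their adjusted permutation p by rho was 0.0764, 0.24 and 0.0717, in that order. The late spermatid, meiotic, epididymal epithelium, liver and spermatogonial sums passed by rho as well. Late spermatid r was 0.75 without the 2 libraries farthest from the median, and 0.56 to 0.80 with single libraries left out. Those ranges were 0.27 to 0.56 for meiotic, -0.60 to -0.18 for epididymal epithelium and -0.63 to -0.21 for caput sums. Not centred on diet, r fell to 0.38 for late spermatid and 0.22 for meiotic sums (adjusted permutation p = 0.894 for both). In that setting r turned to 0.032 for epididymal epithelium, 0.12 for caput, 0.13 for spermatogonial, -0.098 for Prkca and 0.062 for reads in no feature. Among 6 HFD libraries Prkca gave -0.49 and reads in no feature 0.13. Among CD libraries the gene total gave 0.081, and with a pseudocount of 0.1 it gave 0.017. With single libraries left out, Prkca ranged from -0.12 to 0.53, Rn45s from -0.093 to 0.18, reads in no feature from -0.18 to 0.039 and the gene total from -0.17 to 0.084. The cause of these turns was not tested. With 2 to 15 Apoh reads per CD library, depth limits every relation within CD.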

Other observations

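Centred on diet over 14 libraries, the genes most like Apoh by Spearman's rho, a ranking chosen after the data were seen, were Ssx2ip (0.90), Tbc1d22a (0.88), Emg1 (0.83), Rhno1 (0.83) and Gins4 (0.83). Ssx2ip encodes a centrosomal protein, Tbc1d22a a Rab GTPase-activating protein, Emg1 a ribosome assembly factor, Rhno1 a DNA damage checkpoint protein and Gins4 a subunit of the replication complex. Of the 5, Ssx2ip had 153 CPM in HFD and 90.0 in CD on average, and Emg1 32.4 and 41.7, and 0 passed edgeR's adjusted threshold by diet. The ranking covered 13148 genes over 14 libraries, with as few as 2 Apoh reads in a library.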
